A study of Homo sapiens with 8 samples.

Results

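Recovery of wild-type HAP1 cells from RNA-protein crosslinking was followed by ribosome profiling, from 0 min to 30 min after irradiation. The transcripts described are those with a mean of 1 RPKM or more over the 4 wild-type libraries, where RPKM is reads scaled to transcript length and to the library's total. Of the 19580 transcripts listed, 1 per gene, 11833 met this minimum, and they held between 99.61% and 99.68% of the reads of each wild-type library. Of the 7747 others, 4627 had no read in any of these 4 libraries. The 5 transcripts just above the minimum had 4 to 7 reads in all 4 libraries together, and the 5 just below it had 5 to 12.

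HAP1 is an adherent, near-haploid human cell line that descends from a chronic myeloid leukaemia line. Both groups were wild-type cells given 5 uM 4-thiouridine (4SU) for 18 h and then 6 kJ/m2 of UVA light. They were harvested at 0 min or after 30 min of recovery, with 2 biological replicates each. The series also holds the same times and treatment in cells with RNF14 knocked out, 2 replicates each, which are used here for the spread between replicates and as a second recovery that shares no library with wild type. Every library came from cells that had received 4SU and UVA. Neither time has an untreated counterpart here, so what 30 min in culture does without crosslinking was not analysed here.

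Ribosome profiling sequences the short stretches of mRNA that ribosomes shield from RNase, so a transcript's reads follow both the amount of its mRNA and how densely ribosomes occupy it. 4SU is a uridine analogue that cells build into new RNA, and UVA light makes it bond to proteins that touch the RNA. A protein fixed to an mRNA in this way can block ribosomes. Stalled ribosomes are detected by GCN1 and ubiquitin ligases, RNF14 among them, which mark proteins in the ribosome's decoding centre for degradation.

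Transcripts are listed by Ensembl ID alone. The available table of gene symbols contained no Ensembl ID, so 0 of 19580 IDs could be named. Functional classes, the footprints of RNF14 and markers of the cell line were therefore not analysed here. Transcripts are referred to by their length, and the first 2 in each direction also by their ID. Lengths are not unique, so a length stands here for the transcript whose values are given with it.

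Reads totalled 890647 and 971695 in the wild-type libraries at 0 min, against 717828 and 516410 at 30 min. Both libraries at 30 min were shallower than both at 0 min, so depth and time cannot be told apart. Values were compared as log2(RPKM + 1), and a fold change on this scale understates the change of transcripts with low values. Across the 11833 transcripts, replicates correlated with Pearson's r of 0.951 at 0 min and 0.941 at 30 min; transcripts are not independent replicates. The SD of the difference between replicates was 0.57 at 0 min and 0.65 at 30 min.

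Most transcripts took a smaller part of the reads at 30 min, and a small set took a much larger one. The median log2 change from 0 to 30 min was -0.26, with 5% of transcripts below -1.11 and 5% above 0.77. In the 4 pairings of a 30 min with a 0 min library the median ran from -0.32 to -0.15, while the replicates differed by -0.12 at 0 min and 0.01 at 30 min. A change was negative for 68.9% of transcripts. Both libraries at 30 min lay below both at 0 min for 4637 transcripts, 39.2% of those tested, and above both for 1662, or 14%. RPKM is relative to the library's total, so a gain in a few abundant transcripts lowers all other values, and the median change was -0.55 with TPM scaling and 0.02 after centring each library on its median.

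At an adjusted p below 0.05 in limma-trend with Benjamini-Hochberg adjustment, 390 transcripts changed, 3.3% of those tested. Of these, 217, or 1.83%, rose and 173, or 1.46%, fell. This split followed the scaling, with 164 up and 1254 down under TPM scaling, 342 up and 22 down after median centring and 296 up and 151 down after quantile normalization. Among risers the log2 change had a median of 1.12, with 0.61 the smallest and 4.06 the largest. The fallers had a median of -1.19, and their changes spanned 0.65 to 4.95 in size. For 205 risers and 154 fallers the group with the higher value held at least 50 reads. Only 3 risers and 4 fallers rested on fewer than 10 reads there. With at least 50 reads the largest rise was 2.87 and the largest fall 2.30 in size, so calls on fewer reads set both extremes. The count of calls varied with the libraries in the fit. Leaving out wild type at 30 min replicate 2 gave 72 and replicate 1 gave 94, while leaving out wild type at 0 min replicate 2 gave 110 and replicate 1 gave 231. The knockout libraries enter only through the spread. Without replicate 1 or 2 of the knockout at 0 min the count was 174 or 176, and without replicate 1 or 2 of the knockout at 30 min it was 718 or 726.

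**Figure D1:**
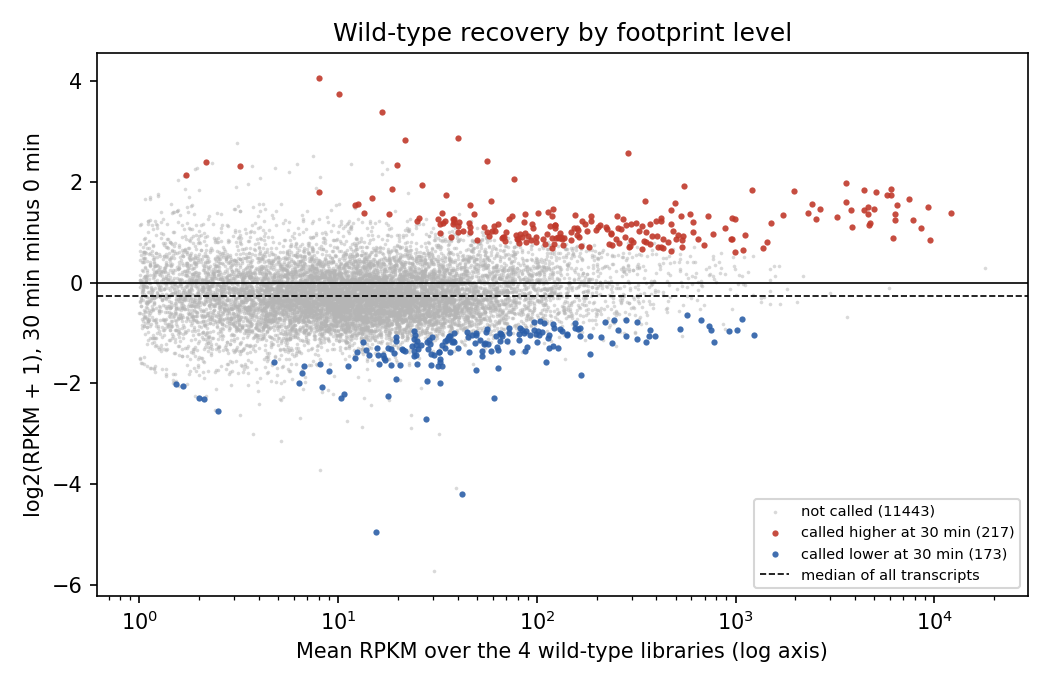
Each point is 1 of the 11833 transcripts, with its mean RPKM over the 4 wild-type libraries (horizontal, log axis) and its change in log2(RPKM + 1) from 0 to 30 min (vertical); red and blue points are the 217 risers and 173 fallers, grey points the rest, and the dashed line is the median, -0.26. Risers extend to higher levels than fallers.

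The largest changes were taken from called transcripts with at least 50 reads in the higher group and wild-type times that did not overlap. Gaps between the times in these transcripts follow in part from this rule and add no support to their calls. The 12 largest rises ran from 1.81 to 2.87 on the log2 scale. The first was ENSG00000120738.8, of 3137 nt, which had 8.59 and 9.19 RPKM in the libraries at 0 min and 67.1 and 75.9 RPKM at 30 min. Both values at 30 min lay above both at 0 min, as the rule required. Its log2 change was 2.87 (SE 0.30, adjusted p = 0.000654 by limma). Reads numbered 52 at 0 min and 274 at 30 min, a share of all reads 7.95 times as large, with an exact 95% Clopper-Pearson interval from 5.89 to 10.9 that covers counting error only.

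The second riser was ENSG00000177606.8, of 3257 nt. It had 4.83 and 4.42 RPKM at 0 min and 38.1 and 39.2 RPKM at 30 min, on 28 and 155 reads. Replicates lay close together at both times, and its log2 change was 2.82 (SE 0.31, adjusted p = 0.000892 by limma). Next was a transcript of 390 nt, at 69.1 and 97.6 RPKM against 518 and 467 RPKM, with 2.57 on the log2 scale (SE 0.22, adjusted p = 0.000217 by limma). The 3 started from different levels, and in each the times were far apart beside the gap between replicates.

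The fourth, of 489 nt, went from 23.0 and 12.6 to 94.0 and 95 RPKM, but on only 16 reads at 0 min and 57 at 30 min, and its call was lost when replicate 2 at 30 min was left out. The fifth, of 1398 nt, had 23.3 and 36.1 RPKM and then 123 and 125 RPKM. Another of 1706 nt went from 9.87 and 10.9 to 39.2 and 45.4 RPKM, on 33 and 88 reads. That last call was lost when any 1 of the 4 wild-type libraries was left out, with a limma adjusted p of up to 0.17 over all alternatives.

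The other 6 of the 12 were read far more often. A transcript of 527 nt had 1462 and 1426 RPKM at 0 min and 6450.0 and 5041 RPKM at 30 min, 1.98 on the log2 scale (SE 0.14, adjusted p = 6.45e-05 by limma). Its reads went from 1416 to 3812 although the libraries at 30 min were shallower. Transcripts of 509 nt and 503 nt rose alike. The first went from 2354 and 2911 to 10814 and 8263 RPKM, and the second from 1799 and 2066 to 7223 and 6633 RPKM. A transcript of 496 nt went from 529.7 and 531 to 2014 and 1792 RPKM, and one of 776 nt from 826 and 926 to 3285 and 2869.7 RPKM. The longest of these 6, of 1256 nt, went from 219.9 and 239 to 904 and 837 RPKM. In all 6 the gap between the times exceeded the gap between replicates, with log2 changes from 1.81 to 1.98. Leaving out any 1 of the 4 wild-type libraries kept 10 of the 12 calls.

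The 12 largest falls were chosen by the same rule, with at least 50 reads at 0 min. They were smaller, from 1.64 to 2.30 in size, and rested on fewer reads. The first was ENSG00000164048.14, of 593 nt, at 129 and 76.4 RPKM at 0 min and 16.4 and 22.9 RPKM at 30 min. On 112 and 14 reads, its share of all reads at 30 min was 0.189 of that at 0 min, with an exact 95% interval from 0.0999 to 0.33. Its log2 change was -2.30 (SE 0.31, adjusted p = 0.0033 by limma). The second was ENSG00000142173.16, of 3445 nt, with 46.6 and 57.4 RPKM at 0 min and 17.8 and 8.43 RPKM at 30 min, -1.99 on the log2 scale (SE 0.33, adjusted p = 0.0116 by limma). The call of the first was lost without replicate 1 at 30 min, and that of the second without either replicate at 0 min or without replicate 2 at 30 min.

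The most read of the 12, with 2190 reads at 0 min and 382 at 30 min, had 4442 nt. It went from 199.7 and 324 to 65.5 and 75.4 RPKM, -1.84 on the log2 scale (SE 0.25, adjusted p = 0.0033 by limma). Replicates at 0 min differed by more than those at 30 min. Its call was lost when either replicate at 30 min was left out. A transcript of 1210 nt had the closest replicates at 30 min. It went from 85.4 and 68.0 to 21.9 and 22.4 RPKM, -1.74 on the log2 scale (SE 0.22, adjusted p = 0.00199 by limma), and was the single faller of the 12 whose call held with any 1 wild-type library left out.

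Of the 12 risers 7 were 1000 nt or shorter, and of the 12 fallers 1 was. Among all calls these shares lay closer together, with 95 of 217 risers, or 43.8%, and 44 of 173 fallers, or 25.4%, at 1000 nt or less, beside 1120 of 11833 transcripts, or 9.47%. The last share is not matched for level. Calls were most frequent among transcripts of high level, and these were shorter. In the decile highest in the knockout at 0 min the median length was 1162.5 nt, beside 2624 nt for all. These shares thus do not separate length from level. At 30 min the risers had 57 to 6123 reads, and at 0 min the fallers had 56 to 2190. All 24 calls were lost without a trend in the prior variance, and all 24 held with limma voom on recovered reads.

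**Figure D2:**
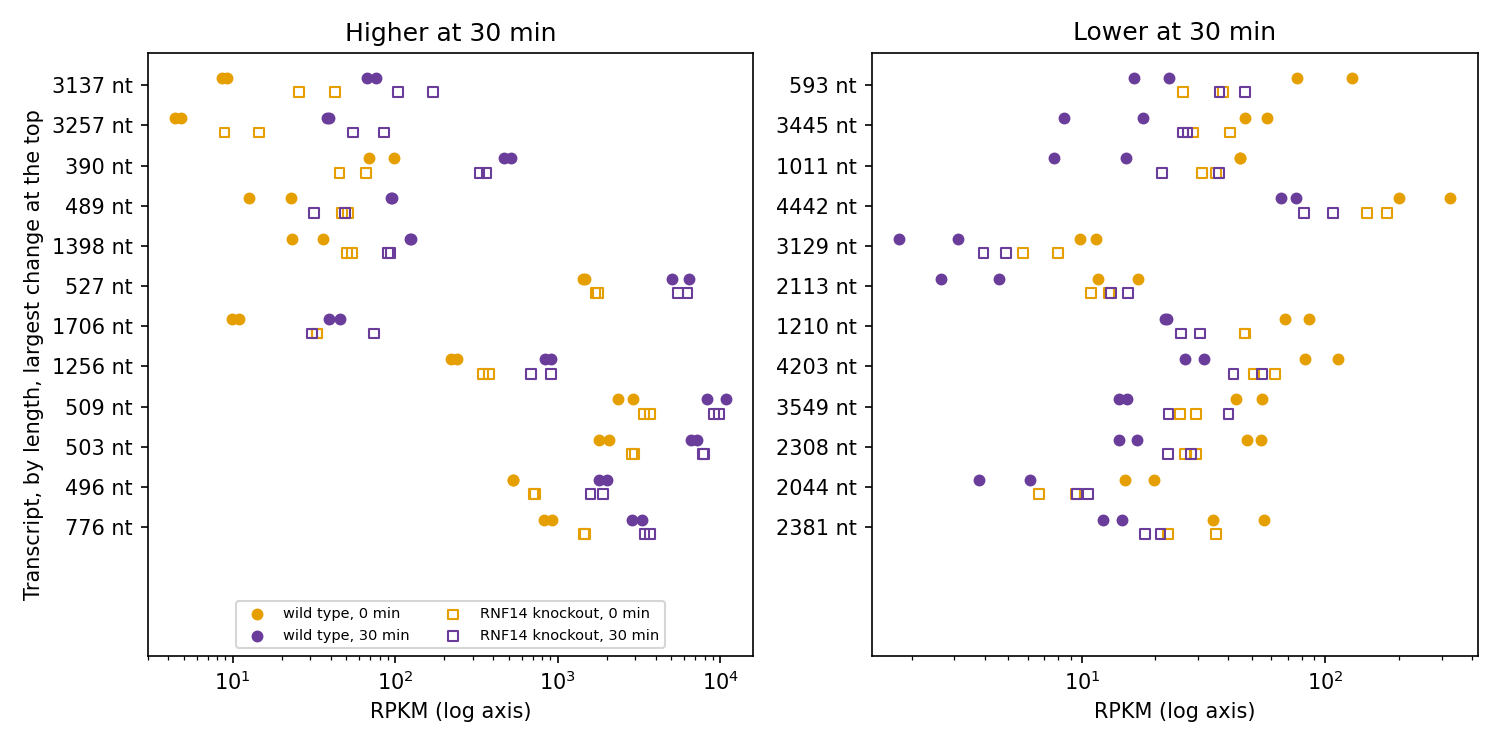
Every library's RPKM (log axis) for the 12 largest rises (left) and 12 largest falls (right) among well-read transcripts; filled circles are wild type and open squares RNF14 knockout, orange at 0 min and purple at 30 min, with 2 replicates per group. The rule that chose the rows required that wild-type circles of the 2 times do not overlap. The knockout squares of the 2 times separate in 10 rows on the left, all higher at 30 min. On the right they separate in 7, of which 5 are lower and 2 higher at 30 min. Of all transcripts, 18.2% separated upwards in the knockout and 31.2% downwards.

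The same 24 transcripts were set beside the recovery of the RNF14 knockout, which shares no library with wild type. The fit does share one error between both genotypes for each transcript, so transcripts that passed in wild type bring the same error into the knockout's test, which is not independent of the choice. They were chosen for a large change in wild type, so a smaller one in the knockout follows in part from that choice. The knockout change was positive for 11 of the 12 risers and for 40.5% of all transcripts tested. In the knockout 9 of the 12 passed the test upwards, where 0.659% of all transcripts did. The transcript of 3137 nt had 25.7 and 42.6 RPKM in the knockout at 0 min and 104 and 170.1 RPKM at 30 min, and the one of 3257 nt had 8.90 and 14.6 RPKM and then 55.0 and 85.6 RPKM. For the 390 nt transcript the values were 45.4 and 65.9 and then 364 and 329 RPKM, a log2 change of 2.64 beside 2.57 in wild type. The exception was the 489 nt transcript, at 51.0 and 47.3 RPKM at 0 min and 31.6 and 49.0 RPKM at 30 min.

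The knockout change was negative for 8 of the 12 fallers and for 59.1% of all transcripts. None of the 12 passed the limma-trend test there, beside 1.37% of all that passed downwards. An unadjusted p below 0.05 was reached by 2 of them and 18.3% of all, and 1 passed with voom, beside 3.41% of all. These shares lie near those of all transcripts. The knockout's values for the 593 nt transcript were 38.0 and 26.0 RPKM at 0 min and 46.9 and 36.7 RPKM at 30 min. For the 4442 nt transcript they were 179 and 148 and then 108 and 81.4 RPKM. The interaction term of genotype with time tested whether recovery differed between genotypes. None of the 24 passed it in limma-trend, where 1 of all 11833 transcripts, or 0.00845%, did, with adjusted p from 0.193 to 0.937. Of the 24, 19 had an unadjusted p below 0.05 for this term, beside 13.3% of all, and 6 passed with voom, beside 1.06% of all. The wild-type change that chose the 24 is one part of the interaction, so nothing is read from these counts. At 0 min both wild-type libraries lay below both knockout libraries for 11 of the 12 risers and for 20.7% of all transcripts, and above both for 10 of the 12 fallers and 30.2% of all. The rule favours low wild-type values at 0 min in risers and high ones in fallers, so these counts are a description.

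The next question was where in the range of footprint levels the calls lay. To keep the level apart from the wild-type libraries, transcripts were divided into deciles by their mean RPKM in the knockout at 0 min, a division made after the data had been seen. The top decile, of 1184 transcripts between 82.1 and 14057 RPKM there, held most of the wild-type risers. In it 148 transcripts rose and 62 fell, or 12.5% and 5.24%, beside 1.83% and 1.46% of all. In decile 9, 33 rose and 31 fell, and in decile 8, 17 rose and 40 fell. In decile 5, 3 rose and 6 fell, and in decile 1, 3 and 3. Transcripts of low level have few reads, and the scale understates their changes, so they can pass the test less easily. These counts show where calls lay and cannot show by themselves where changes did.

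The medians did not depend on calls. The median log2 change was -0.22 in decile 1, -0.32 in decile 6, -0.19 in decile 9 and -0.04 in decile 10, the top one. Over the 4 pairings of libraries the median of the top decile ran from -0.12 to 0.09, and that of decile 6 from -0.46 to -0.17. The replicates at 0 min differed along this scale too. In the top decile replicate 2 lay 0.18 above replicate 1 in the median, and in decile 6 it lay 0.23 below, where the replicates at 30 min differed by -0.07 and 0.07.

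Read shares showed the same in other units. The top decile took 40.6% and 46.9% of all reads at 0 min and 54.4% and 52.9% at 30 min, a mean of 43.7% ± 4.41 against 53.6% ± 1.06 (SD, n = 2 each). Each of the other 9 deciles took a smaller share in both libraries at 30 min than in both at 0 min. For decile 6 the shares were 7.59% and 6.38% and then 5.30% and 5.64%. With 2 libraries a time no exact test of a share can give a p below 0.333, so these shares carry no test.

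**Figure D3:**
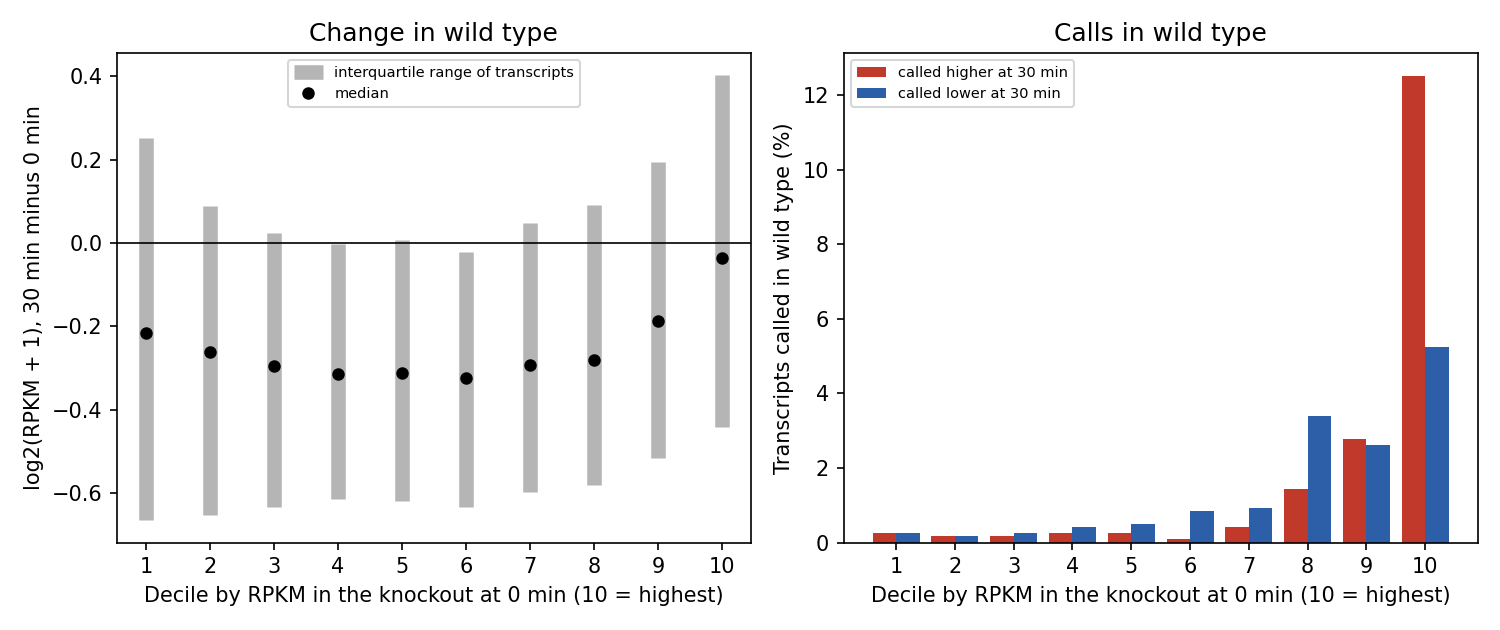
Transcripts in deciles of 1183 or 1184 by RPKM in the knockout at 0 min (horizontal, 10 the highest): left, the median wild-type change in log2(RPKM + 1) as a point and the interquartile range as a bar; right, the percentage of each decile called higher (red) or lower (blue) at 30 min in wild type. The medians lie between -0.32 and -0.04, and 12.5% of the top decile were called higher.

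Length and level were then combined. Among transcripts of up to 600 nt, the 162 in the top decile took 6.62% and 7.70% of reads before recovery and 13.7% and 12.1% after it. The 167 equally short ones in the other deciles took 0.156% and 0.154% and then 0.158% and 0.151%, values that overlap. Of the 162, 37 rose, 12 fell and the median log2 change was -0.03, with quartiles at -0.50 and 0.64. For the 328 of the top decile over 600 and up to 1000 nt the median was -0.01, with 44 risers and 19 fallers. The 457 over 1000 and up to 2000 nt had a median of 0.01, with 54 risers and 19 fallers. The 30 longest, over 4000 nt, had a median of -0.52, with 1 riser and 3 fallers. Over the pairings of libraries this median ran from -0.63 to -0.19, and the replicates at 0 min differed by 0.58 in the median. The 30 took 8.42% and 9.33% of reads at 0 min and 9.20% and 10.8% at 30 min, values that overlap.

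A closer view came from the 100 transcripts with most reads in the knockout at 0 min. They took 17.5% and 20.6% of wild-type reads at 0 min and 28.0% and 27.6% at 30 min. In wild type 39 of them rose and 7 fell, where 1.83% and 1.46% of all transcripts did, and their median log2 change was 0.17 beside -0.26 for all. Its sign turned with the scaling, at -0.13 with TPM scaling, -0.11 after quantile normalization and 0.45 after median centring, and over the pairings of libraries it ran from -0.01 to 0.34. Of the 52 that were 1000 nt or shorter, 32 rose, 3 fell and 17 did not pass the test. Their median was 1.12, and over the pairings of libraries it ran from 0.92 to 1.34. Of the 48 longer ones 7 rose and 4 fell, with a median of -0.09 that ran from -0.35 to 0.14 over the pairings. The number of risers among the 100 was 21 after quantile normalization, which called 24 down. It was between 31 and 41 under the other alternatives that kept a trend in the prior, and 43 with limma voom.

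The 32 short risers spanned 388 to 950 nt and log2 changes from 0.61 to 1.98. A transcript of 511 nt, the most read of them, had 6251 and 7303 RPKM at 0 min and 18396 and 16602 RPKM at 30 min, 1.37 on the log2 scale (SE 0.11, adjusted p = 0.000149 by limma). One of 731 nt went from 3411 and 3742 to 11755 and 10797 RPKM, 1.66 on the log2 scale (SE 0.11, adjusted p = 6.45e-05 by limma). Another of 948 nt went from 2138 and 2424 to 8439 and 7327 RPKM. At the low end of this group stood a transcript of 405 nt, at 6654 and 6978 and then 12541 and 11839 RPKM, 0.84 on the log2 scale (SE 0.10, adjusted p = 0.00118 by limma). In each of these 4 the gap between times was larger than the gap between replicates. Both libraries at 30 min lay above both at 0 min in all 217 risers, so this gap adds no support to their calls.

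Other short transcripts of like level did not pass the test or fell. One of 557 nt, one of the most read of the 100, had 5594 and 6783 RPKM at 0 min and 5692 and 5698 RPKM at 30 min, so its times overlapped. A transcript of 637 nt had 2766 and 3672 RPKM and then 2707 and 2788 RPKM, with -0.21 on the log2 scale (SE 0.14, adjusted p = 0.42 by limma). One of 788 nt was at 2116 and 2508 and then 1747 and 1779 RPKM, with no overlap and a limma adjusted p of 0.126. The 3 short fallers, of 586 to 827 nt, changed by -0.72 to -1.03.

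Among the longer ones, the most read transcript of all, of 4298 nt, had 15758 and 16795 RPKM at 0 min and 18011 and 21683 RPKM at 30 min. Both libraries at 30 min were higher, but its log2 change of 0.28 (SE 0.11, adjusted p = 0.18 by limma) did not pass the test. A transcript of 1687 nt rose, from 857 and 981 to 2162 and 2027 RPKM, 1.19 on the log2 scale (SE 0.13, adjusted p = 0.00108 by limma). One of 1795 nt fell, from 1005 and 1698 to 739.6 and 628 RPKM, -0.94 on the log2 scale (SE 0.22, adjusted p = 0.0449 by limma), with replicates at 0 min far apart. The 4 long fallers spanned 1795 to 2202 nt and changes of -0.94 to -1.18.

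**Figure D4:**
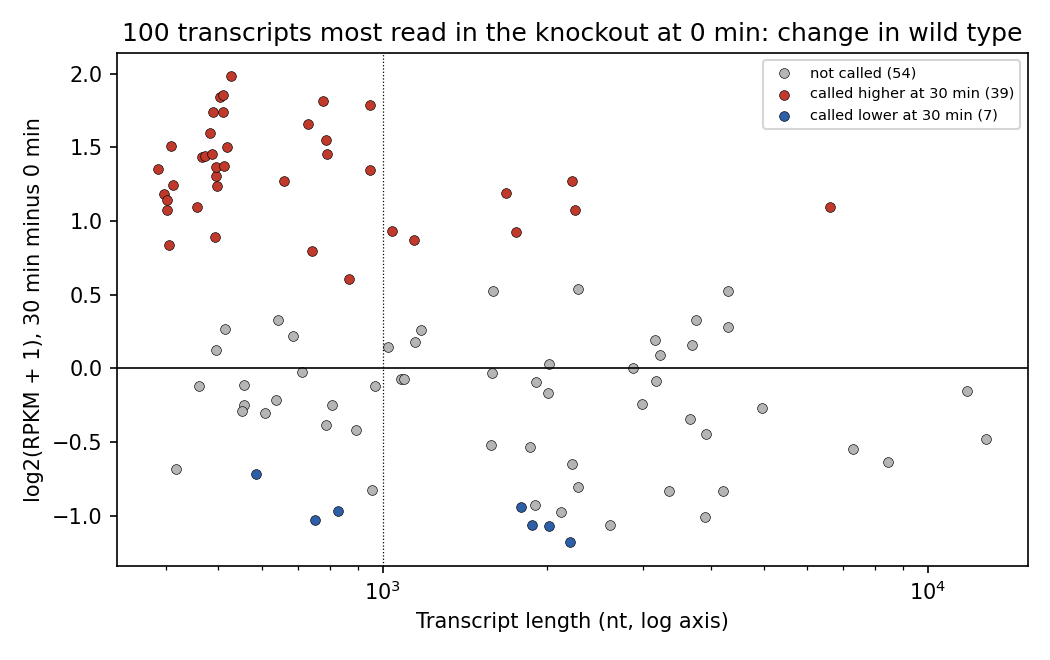
Length (horizontal, log axis) and wild-type change in log2(RPKM + 1) (vertical) of the 100 transcripts with most reads in the knockout at 0 min; red points rose, blue points fell, grey points did not pass the test, and the dotted line marks 1000 nt. Left of the line 32 points rose, between 0.61 and 1.98, above 17 grey and 3 blue points, while right of it 37 of 48 are grey.

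The knockout's libraries at 0 min chose these 100, so their change in the knockout is given as a description. It had a median of -0.25 on the log2 scale, beside -0.12 for all transcripts. For the 52 of 1000 nt or less the knockout median was 0.63, and for the 48 longer ones -0.54. In the knockout 29 of the 100 were called up and 16 down, where 0.659% and 1.37% of all transcripts were. Of the short ones 27 were called up and 10 down, and of the longer ones 2 and 6. The 511 nt transcript had 9233 and 8595 RPKM at 0 min and 16927 and 16602 RPKM at 30 min, and the 731 nt transcript had 4963 and 5023 and then 10435 and 11755 RPKM. For the 4298 nt transcript they were 13697 and 14416 and then 20598 and 19486 RPKM. These 3 were higher at 30 min, and the others named above for not passing in wild type were lower. The 557 nt transcript had 7163 and 7002 RPKM and then 4406 and 5250.4 RPKM. For the 637 nt transcript the values were 3563 and 3667 and then 1764 and 2020.3 RPKM. The 788 nt transcript was at 2773 and 2617 and then 1383 and 1581 RPKM.

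Few transcripts were read at one time and not at the other. Of the 11833, 29 had no read in either library at 0 min, and these had at most 8 reads over both libraries at 30 min. A further 49 had no read at 30 min and at most 14 reads at 0 min. Of these, 3 were called higher and 6 lower at 30 min. Counts this low cannot show that a transcript was unread at the other time.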

How the data were processed

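Footprints came from ribosomes pelleted out of RNase I-treated, cycloheximide-arrested lysates, per the labels' protocols. Cutadapt, STAR 2.7.10a and hg38 appear in the submitters' processing notes. How reads were counted, which transcript was chosen and how reads mapping to several places were treated is not given in the sources used here. In 1 table the authors deposited RPKM values with transcript lengths for 8 libraries; 1 column carries a suffix that no label explains and was matched by genotype, time and replicate. RPKM times length gave whole multiples of 1 read, within 0.05, for 100% of values above 0, and reads were recovered from this. Lengths ran from 39 to 81357 nt. Since 35.2% were multiples of 3, lengths take in untranslated regions.

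Values of log2(RPKM + 1) were tested two-sided with limma-trend (R 4.3.3, limma 3.58.1), with 8 libraries as 4 group means, 4 residual degrees of freedom, no replicate block and Benjamini-Hochberg adjustment over 11833 transcripts at 0.05. Recovered reads were tested with limma voom as an alternative. The others were pseudocounts of 0.1 and 5, no filter, a mean RPKM of 5, a mean of 10 reads, no trend, a replicate block, TPM scaling, quantile normalization, median centring, wild-type libraries alone, and each library left out. Counts were simulated for recovery in wild type, with 200 changed transcripts drawn from those with a mean of 10 or more wild-type reads. Every transcript had the same dispersion, estimated from wild type at 0 min. A 4-fold change was found for 71.5%, among 11849 tested, and a 2-fold change for 0%, among 11857 tested. The fit to the data did call rises as small as 0.61 on the log2 scale, so the simulated rates need not hold for these data. An absent call says little about 2-fold changes. For the 4-fold set 1.38% of 145 calls were false. Other comparisons were not simulated.

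The members, lists and rules were chosen with earlier results of these data known. The rule for named genes took, in each direction, the 12 largest changes past the threshold with 50 or more reads in the higher group and replicates that do not overlap between times. It also asked for a gene symbol; since 0 of 19580 IDs could be matched, this condition was dropped and the 41 lists of gene symbols, the cell markers among them, were not run. Deciles by level, the length classes and the 100 most read transcripts were chosen after the data had been seen. The main fit did not pair libraries by replicate number, and p-values measure the spread between the replicates deposited. Python 3.11.15 drew the figures and made the summaries, with matplotlib 3.10.9, scipy 1.17.1, pandas 2.3.3 and numpy 2.4.6.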

Additional observations from a re-analysis of the deposited data

Results flagged for a closer look

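A single transcript, of 51 nt, differed between the genotypes in its recovery by the interaction of genotype and time, by 6.76 on the log2 scale, knockout minus wild type (SE 0.47, adjusted p = 0.000446 by limma). It had 1 and 2 reads in wild type at 0 min and 0 in both libraries at 30 min. In the knockout libraries it had 1 or 2 reads each. With a mean of 10 or more reads required it is not tested.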

How the results depend on the processing

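The 390 calls in wild type (217 up, 173 down) became 1418 (164 up, 1254 down) with TPM scaling, 1180 (400 up, 780 down) with limma voom, 646 (282 up, 364 down) with a mean of 10 or more reads, 539 (257 up, 282 down) with a mean RPKM of 5, 499 (224 up, 275 down) with the wild-type libraries alone, 364 (342 up, 22 down) with median centring, 447 (296 up, 151 down) after quantile normalization and 3 (2 up, 1 down) without a trend in the prior, where 2309 had an unadjusted p below 0.05. The median of all transcripts was -0.55 with TPM, 0.02 with median centring and -0.02 after quantile normalization, so the share of fallers follows the scaling. Under all 4 scalings 140 transcripts rose and 22 fell. Of the calls reported, voom called 212 risers and 151 fallers in the same direction.

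Leaving out 1 library gave between 72 and 726 calls, 60 to 305 up and 12 to 424 down. The replicate block gave 336 calls (191 up, 145 down). Deviations of same-numbered libraries were weakly correlated, from -0.08 to 0.06. Such values cannot show whether same-numbered libraries were prepared together, and the main fit did not pair them.

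Of the 100 most read transcripts, 39 rose and 7 fell. The risers were 21 after quantile normalization and 0 without a trend, and 31 to 39 with 1 library left out. The fallers were 32 with TPM scaling, 24 after quantile normalization, 22 with voom, 16 with a mean of 10 or more reads, 11 with a mean RPKM of 5 or wild-type libraries alone, 4 with no filter, 0 with median centring or without a trend, and 1 to 16 with 1 library left out.

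The interaction called 1 transcript, and 125 with voom, 2 without a trend in the prior and 0 with a mean of 10 or more reads, where 1463 had an unadjusted p below 0.05; with 1 library left out it called 1 to 67. For the 24 named transcripts, 407 of 480 refits stayed past the threshold and 73 did not, all in the same direction as reported. The causes of these differences were not tested.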
